A study of Mus musculus with 6 samples.

Results

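The MYC, MAX and MXD network was measured by its 8 genes Mxd1, Max, Mxi1, Mlx, Mnt, Myc, Mxd4 and Mga, chosen by symbol from the 47561 gene and transcript features of each library, and all 8 were found. Total RNA had been sequenced from mouse blood neutrophils purified by flow cytometric sorting, in 3 negative control samples and in 3 samples taken after 30 days of AVP. The labels give no strain, age, sex, dose or route, do not expand AVP, and do not say whether samples came from separate animals, so any p-value measures no more than sample-to-sample spread, possibly technical. These genes were proposed with the AVP against control results of these samples in view, so their differences are given as a description, without a test. Levels are in FPKM, fragments scaled to transcript length and library size, and can be compared between genes because they are set per length.

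MYC is a basic helix-loop-helix leucine zipper factor that binds the E-box CACGTG only as a heterodimer with MAX and activates genes of growth and division. The MXD proteins (MXD1, MXI1 and MXD4 here) and MNT compete for MAX and recruit the SIN3 and histone deacetylase corepressor to the same sites. MGA also pairs with MAX, within a variant Polycomb complex, and MLX, a MAX-like protein, pairs instead with the glucose-responsive factors MondoA and ChREBP. MXD1 is known to accumulate as granulocytes mature, when MYC is shut off.

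Several genes of the network hold the letters of its E-box near their own start sites, which is why these stretches are shown. RefSeq start-site windows of the GRCm38.p6 assembly, from 250 bases before to 50 bases after each start, were matched by symbol for 7 of the 8 genes, and Myc was not matched. The palindrome CACGTG, which reads the same on both strands, was found in the windows of 4 of those 7 genes (57.1%), against 734 of 6147 tested genes with a window (11.9%) and 7.2% of all 32851 windows. Each line below runs 5′ to 3′ along the gene, with the E-box in capitals.
Mxd4, minus strand, chr5:34187912-34187941: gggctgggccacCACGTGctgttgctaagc
Mnt, plus strand, chr11:74830789-74830818: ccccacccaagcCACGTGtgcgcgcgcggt
Mlx, plus strand, chr11:101087238-101087267: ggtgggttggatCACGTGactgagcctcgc
Max, minus strand, chr12:76962234-76962263: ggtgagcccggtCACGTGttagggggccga
The first base of the E-box lay 219 bases upstream of the start site of the window in Mxd4, 123 in Mnt, 40 in Mlx and 3 in Max. Only in Mxd4 is that start site the outer end of the gene interval given below. In the other genes with a window it lies inside the interval, as do the E-boxes of Mlx and Max. The whole windows of Mlx, Mxi1 and Mga also lie inside their intervals. The windows of Mxd1, Mxi1 (3 windows) and Mga held no CACGTG. Such a match is a stretch of letters and not a measured binding site.

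The window of Mxd1, the most abundant gene of the network, held 4 copies of CCAAT on the gene's strand in its 250 upstream bases (0.23% of all windows hold 4 or more, and 19.1% hold at least 1). The 175 bases of it that lie outside the annotated gene, with 3 of those copies in capitals, are shown as a start region of the network without an E-box. In all, 74.9% of these bases are G or C. The cutoff of 4 copies is the count of the Mxd1 window itself, and CCAAT was not among the planned comparisons, so nothing is read from the 0.23%.
Mxd1, minus strand, chr6:86669235-86669409: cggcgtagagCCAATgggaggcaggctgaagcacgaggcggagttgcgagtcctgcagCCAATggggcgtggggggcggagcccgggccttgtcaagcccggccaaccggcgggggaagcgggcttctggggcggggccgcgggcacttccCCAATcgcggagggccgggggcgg

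The libraries held about 14200000 to 16850000 fragments, estimated from the step between low values. All 14 neutrophil markers on the list were above 0 in at least 1 library, led by S100a8 at 95287 to 121812 FPKM, and their summed level was 170862 to 190780 FPKM over the controls and 166863 to 195150 FPKM over the AVP libraries. That sum is mostly S100a8 and S100a9. In the same list Retnlg, Lcn2, Ngp and Hdc were higher and Mmp9 was lower in all AVP libraries than in any control, Retnlg at 4925 to 5538 FPKM against 9729 to 11050 FPKM and Lcn2 at 236 to 475 FPKM against 812 to 1019 FPKM. Transcripts of other blood cells were present. The 9 B cell markers, all above 0 in some library, summed to 6485 to 8779 FPKM over the controls and 2025 to 6667 FPKM over the AVP libraries, lowest in AVP replicate 1, and 3 of the 9 (Cd79b, Igkc and Pax5) were lower without overlap. The 10 T and NK cell markers summed to 4.32 to 16.6 FPKM over the controls and 2.91 to 163 FPKM over the AVP libraries, with Cd3e at 0 in all libraries and the high value in AVP replicate 3. The 10 monocyte markers summed to 2512 to 5175 FPKM over the controls and 980 to 6157 FPKM over the AVP libraries, lowest in AVP replicate 3. The 7 basophil markers reached 17.1 FPKM in controls and 326 FPKM in AVP replicate 1. That library also had the highest sum of 7 erythroid markers, 242562 FPKM, against 102661 to 154851 FPKM in the other 5. Without overlap, the monocyte marker Ms4a4c was also lower, and the platelet marker Gp1bb, at 0 in all controls, was higher. Over all tested genes 6.39% were higher and 7.63% lower without overlap, and nothing is read from the marker counts. The part of transcripts of other blood cells in the results below was not tested.

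Mxd1 and Myc were higher and Mxd4 was lower in all 3 AVP libraries than in any control, while for Max, Mxi1, Mnt, Mga and Mlx the groups overlapped. Groups without overlap were thus seen in 3 of the 8 genes, higher in 2 and lower in 1, and in 14% of all 8523 genes tested (6.39% higher, 7.63% lower). Of the 8 genes, 6 had a fitted log2 fold change above 0, as did 47.9% of all genes. Since the genes were proposed from this contrast, nothing is read from these counts. The fit across all genes (limma on log2 values, Benjamini-Hochberg adjustment) called 0 genes at an adjusted p under 0.05 (0%), members included, while an unadjusted p under 0.05 was found for 722 genes (8.47%; 4.72% higher, 3.75% lower). In 15 alternative fits, 0 of the members tested in each were called. Mxd4, Myc, Mnt and Mga were not tested with a filter of 10 FPKM, nor was Mxd4 without any of the 3 controls in turn. The median log2 fold change was 0.35 over the 8 members and -0.04 over all genes tested. In bulk RNA such as this, fewer cells of a type and less RNA per cell cannot be told apart.

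**Figure D1:**
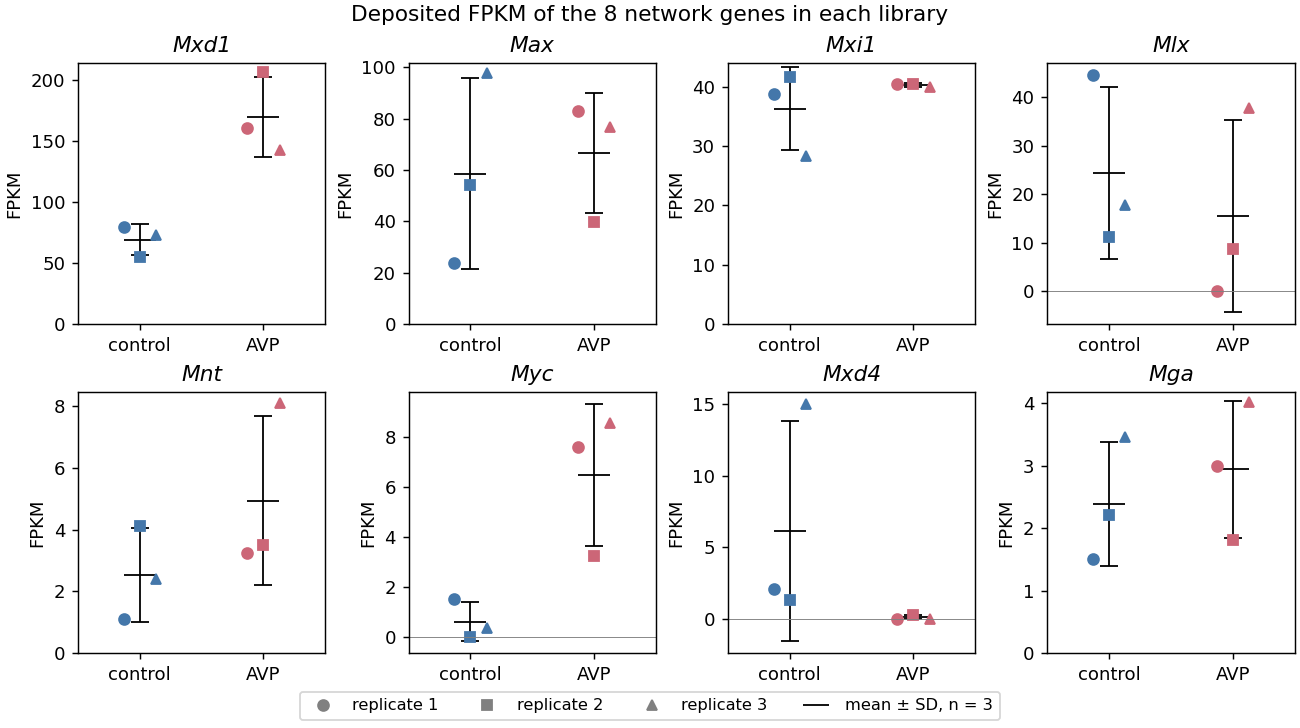
Deposited FPKM (y axis, linear, its own scale per panel) of each network gene in the 3 control (blue) and 3 AVP (red) libraries, with marker shape for the replicate number and bars for the mean and SD (n = 3). The AVP points of Mxd1 and Myc lie above all control points, those of Mxd4 lie below them at 0 to 0.248 FPKM, and the other 5 panels overlap.

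Among the repressors, Mxd1 (gene identifier 17119, chromosome 6, 86647044 to 86669234 in GRCm38) stood at 79.2, 54.9 and 73.2 FPKM in control replicates 1 to 3 and at 161, 206 and 142 FPKM in AVP replicates 1 to 3. Every AVP library thus lay above every control, with a clear gap between the highest control and the lowest AVP library. The means were 69.1 ± 12.6 FPKM and 170 ± 32.9 FPKM (SD, n = 3), a ratio of 2.46, and the fitted log2 fold change was 1.37 (SE 0.27). It stayed between 1.23 and 1.502 with any 1 library left out. The part of other blood cells in this difference was not tested. RefSeq places a long non-coding RNA gene, Gm38850, inside the Mxd1 interval, and as the strand setting of the counting is not given in the sources used here, reads from both could not be told apart.

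Mxi1, a close relative of Mxd1 that also recruits SIN3, varied little. It stood at 38.8, 41.7 and 28.4 FPKM in the control libraries, against 40.57, 40.5 and 39.98 FPKM in the AVP libraries, so the AVP libraries sat inside the control range (chromosome 19, 53310128 to 53373293). Its log2 fold change was 0.25 (SE 0.32), and 0.08 without control replicate 3. The within-group SD on the log2 scale was 0.22 for Mxi1 and 0.25 for Mxd1, against a median of 0.53 over the 1919 tested genes with a mean of 20 to 200 FPKM. The long non-coding RNA gene Gm30541 overlaps the start of the Mxi1 interval.

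Mxd4, the third MXD gene and one of those with an E-box shown above, went the other way. It stood at 2.09, 1.27 and 14.997 FPKM in controls, and it was listed at 0 in AVP replicates 1 and 3 and at 0.248 FPKM in AVP replicate 2 (chromosome 5, 34176580 to 34187710). Control replicate 3 was far above the other controls. The log2 fold change was -2.13 (SE 0.78), and -1.27 without control replicate 3, where Mxd4 no longer passes the filter and the value is a fitted one without a test. At these low values the estimate moved with the constant added before the logarithm, to -4.53 with 0.1 and -0.90 with 5. Mxd4 passed the filter on low values through its 3 control libraries alone, so a tested Mxd4 had to differ between groups.

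Mnt, a widely expressed MAX partner that represses the same sites, was low throughout. It stood at 1.10, 4.14 and 2.40 FPKM in the control libraries, against 3.23, 3.50 and 8.11 FPKM in the AVP libraries (chromosome 11, 74830806 to 74845725). AVP replicate 3 was the highest library, and control replicate 2 lay above the other AVP libraries. The log2 fold change was 0.81 (SE 0.66), 0.48 without control replicate 1 and 0.47 without AVP replicate 3. The repressor Mxd3, also fixed on a list, was listed at 0 in all 6 libraries.

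Myc (chromosome 15, 61985341 to 61990361) was close to the bottom of the measurable range in controls. It stood at 1.51, 0 and 0.341 FPKM in control replicates 1 to 3, about 21.6, 0 and 4.8 fragments per kilobase at the estimated depths. After AVP it stood at 7.63, 3.26 and 8.59 FPKM in replicates 1 to 3, about 113, 52.9 and 145 fragments per kilobase. Every AVP library lay above the highest control, replicate 1. Myc passed the filter through its AVP libraries, as among the controls only replicate 1 reached 1 FPKM. That Myc was tested at all is thus not separate from its difference between the groups. The log2 fold change was 2.29 (SE 0.66), between 2.01 and 2.70 with any 1 library left out, but 3.95 with 0.1 added before the logarithm and 1.05 with 5. Of the 2 AVP libraries with the highest Myc, replicate 1 had the lowest B cell and T and NK cell sums of all 6 libraries with the highest basophil and erythroid sums, and replicate 3 had the highest T and NK cell sum. The related genes Mycn and Mycl were listed at 0 in all 6 libraries.

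Max, the shared partner, is the protein with which MYC, the MXD proteins, MNT and MGA bind the E-box. It stood at 23.8, 54.1 and 97.8 FPKM in the control libraries, against 83.0, 39.8 and 76.7 FPKM in the AVP libraries (chromosome 12, 76937269 to 76962323). The controls spanned the whole AVP range on both sides, so the groups overlapped fully. The log2 fold change was 0.41 (SE 0.56), and it was -0.12 without control replicate 1 and 0.88 without control replicate 3.

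Mga (chromosome 2, 119872503 to 119970129) stood at 1.51, 2.20 and 3.47 FPKM in the control libraries, against 3.00, 1.81 and 4.02 FPKM in the AVP libraries, with a log2 fold change of 0.28 (SE 0.60) that ranged from 0.08 without control replicate 1 to 0.54 without AVP replicate 2. The groups overlapped, as AVP replicate 2 lay below 2 of the controls. Mlx (chromosome 11, 101086707 to 101092207) stood at 44.5, 11.1 and 17.7 FPKM in the control libraries, against 0, 8.72 and 37.8 FPKM in the AVP libraries. The 0 in AVP replicate 1 carried most of its log2 fold change of -1.56 (SE 1.23), which was -0.14 without that library and -2.79 without AVP replicate 3. Of 2995 genes with at least 5 FPKM in each of the other 5 libraries, 43 were listed at 0 in AVP replicate 1, against 1 to 36 in the other libraries. Whether the 0 of Mlx is a low level or a failed estimate was not tested. Mlx also shares the end of its interval with the neighbouring gene Psmc3ip.

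**Figure D2:**
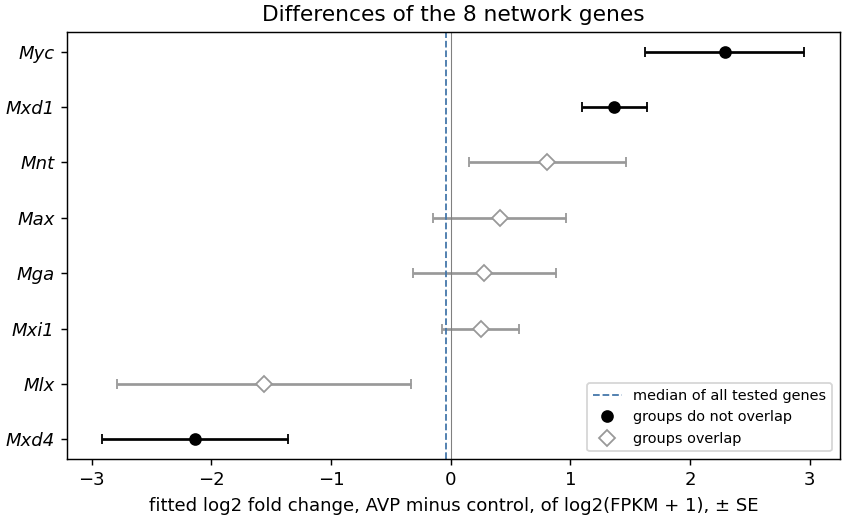
Fitted log2 fold change (x axis, AVP minus control, of log2(FPKM + 1)) of the 8 network genes with its SE, filled where the groups do not overlap and open where they do, with the median of all tested genes as a dashed line at -0.04. Myc (2.29) and Mxd1 (1.37) lie to the right and Mxd4 (-2.13) to the left; Mlx (-1.56) has the widest error.

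Per length, Mxd1 was the most abundant gene of the network in 5 of the 6 libraries, the exception being control replicate 3, where Max was higher. By mean level over the 6 libraries the order was Mxd1 (119 FPKM), Max (62.5 FPKM), Mxi1 (38.3 FPKM), Mlx (19.97 FPKM), Mnt (3.75 FPKM), Myc (3.55 FPKM), Mxd4 (3.10 FPKM) and Mga (2.67 FPKM). This order pools both groups and is that of neither among the 4 low genes: over the controls Mxd4 (6.12 FPKM) led Mnt (2.55 FPKM), Mga (2.39 FPKM) and Myc (0.616 FPKM), and over the AVP libraries Myc (6.49 FPKM) led Mnt (4.95 FPKM), Mga (2.94 FPKM) and Mxd4 (0.0827 FPKM). For the 7 neighbouring pairs the exact sign-flip permutation test over the 6 libraries, two-sided, gave adjusted p of 0.328 or more. The pairs followed the mean levels of these same libraries, so their order was not independent of the values tested. With 6 libraries the smallest unadjusted p that this sign-flip test can give is 0.0313, so a single pair could not pass after adjustment. The smallest that it gave was 0.094, and the test does not show that neighbours were alike. Mxd1 exceeded Max by 0.91 ± 1.02 on the log2 scale (SD, n = 6), in 5 of 6 libraries. Mxd4 had the higher mean of it and Mga through control replicate 3, and was above Mga in 2 of 6 libraries. In every library Mxd1, Max and Mxi1, at 23.8 FPKM or more, lay above Mnt, Myc, Mxd4 and Mga, at 14.997 FPKM or less.

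The makeup of the network is given next as a sum over its genes. The 8 genes summed to 192, 169 and 238 FPKM in controls and to 298, 304 and 318 FPKM after AVP. Mxd1 made up 41.1%, 32.4% and 30.7% of that sum in controls and 53.9%, 67.8% and 44.9% after AVP, and Myc at most 0.783% in controls and at most 2.70% after AVP. Relative to its partner, Mxd1 stood at 3.33, 1.02 and 0.748 times the Max level in controls and at 1.94, 5.19 and 1.86 times after AVP, so this ratio overlapped between the groups while Mxd1 itself did not. Relative to Mxi1, Mxd1 stood at 2.04, 1.32 and 2.57 in controls and at 3.96, 5.09 and 3.56 after AVP, without overlap. The sum, the Mxd1 share and both ratios contain Mxd1, so they are not separate from the difference of Mxd1 itself. A rise of the network as a whole is not read from them.

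**Figure D3:**
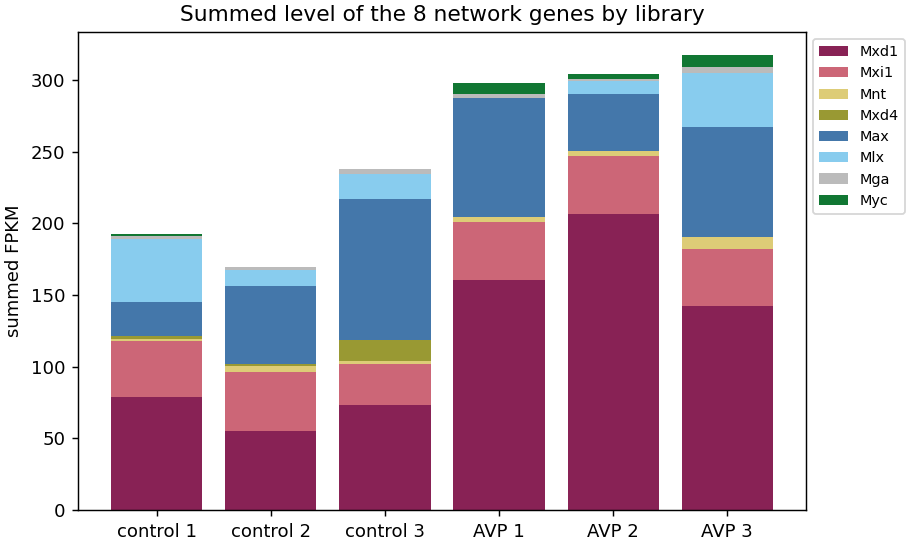
Summed FPKM (y axis, from 0) of the 8 network genes in each library, stacked by gene. The AVP columns reach 298 to 318 FPKM against 169 to 238 FPKM in controls, and the Mxd1 segment at the bottom is taller in all 3 than in any control, while the Max segment varies within both groups. The column height contains Mxd1 and is not separate from its difference.

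The genes most like Mxd1 across the 6 libraries were Hsp90ab1, Litaf, Selenok, Tcn2 and Hdc, by the root mean square difference between centred log2 profiles, among 4520 genes with a mean of at least 5 FPKM. They were picked on these same libraries, so a shift in the same direction as Mxd1 was fixed by the choice. These differences were 0.16, 0.17, 0.19, 0.20 and 0.20 on the log2 scale, against a median of 0.99 over the genes compared. Predicted genes and pseudogenes were left out of the comparison. So was every symbol that begins like those of antigen receptor genes, whatever the gene. Hsp90ab1, a cytosolic chaperone, was at 27.6, 20.7 and 22.1 FPKM in the control libraries, against 49.9, 86.1 and 47.7 FPKM in the AVP libraries. Litaf, an endosomal membrane protein induced by lipopolysaccharide, was at 105, 94.1 and 130 FPKM in the control libraries, against 216, 277 and 204 FPKM in the AVP libraries. Hdc, which makes histamine and is also one of the neutrophil markers, was at 119, 113 and 148 FPKM in the control libraries, against 283, 291 and 234 FPKM in the AVP libraries. Like Mxd1, Hsp90ab1, Litaf, Hdc and Tcn2, a vitamin B12 carrier, were highest in AVP replicate 2, whereas the selenoprotein gene Selenok was highest in AVP replicate 3. Within the network the nearest to Mxd1 was Mxi1 (0.64) and the farthest was Mlx (2.23).

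**Figure D4:**
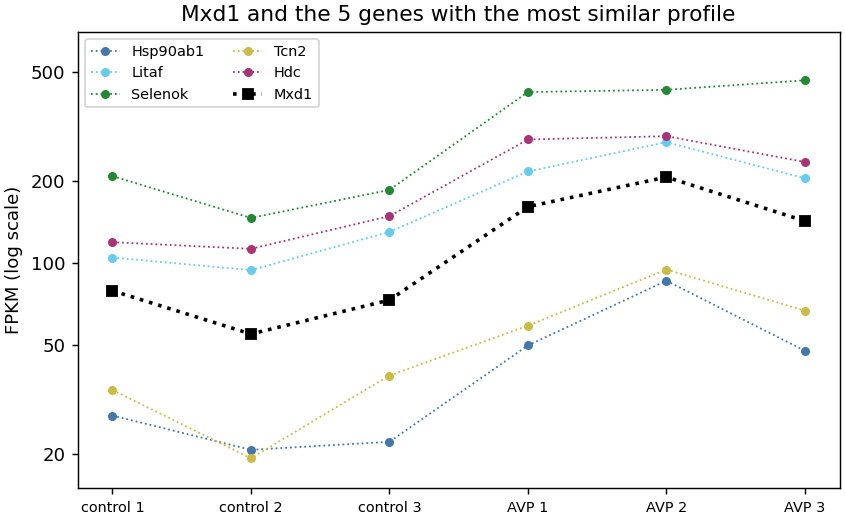
FPKM (y axis, log scale) of Mxd1 (black squares) and of the 5 genes with the most similar profile in the 6 libraries; dotted lines join the points of a gene and stand for no order of the libraries. The 5 genes were chosen for this likeness, so that they are higher in the AVP libraries, as Mxd1 is, follows from the choice, Mxd1 at 142 to 206 against 54.9 to 79.2 FPKM.

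Around the network, 9 lists of cofactors and targets held 108 different tested genes. Of these, 0 were called over all genes by limma (smallest adjusted p 0.12), 10 had an unadjusted p under 0.05, 7 upward and 3 downward (9.26%, against 8.47% of all genes), and 12 had groups without overlap (11.1%, against 14%). Neither share lay far from that of all genes. The fitted log2 fold change lay above 0 for 47.9% of all genes. As the lists were chosen with earlier results known, nothing is read from how many genes of a list lay above 0.

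The extended family had 6 tested genes and 4 listed at 0 in all libraries: Mycn, Mycl, Mxd3 and Mlxipl, which encodes ChREBP. Its 2 most abundant members were Usf2, another E-box factor, at 12.5 ± 5.25 FPKM over the controls and 18.7 ± 6.47 FPKM over the AVP libraries, and Mycbp at 11.2 ± 15.2 and 21.2 ± 8.65 FPKM (SD, n = 3), and 0 of 6 were without overlap. Of the 17 tested genes of the SIN3 and histone deacetylase corepressor, the machinery used by the MXD proteins and MNT, 10 lay above 0 and the median log2 fold change was 0.05. Sin3b, the scaffold with the highest level, was at 96.4, 73.2 and 102 FPKM in the control libraries, against 34.9, 136 and 98.5 FPKM in the AVP libraries, with a fitted change of -0.12 (SE 0.45) in log2 units. Arid4a, a subunit of this complex, was the 1 gene whose groups did not overlap, at 28.9 ± 3.11 and 39.8 ± 4.89 FPKM (SD, n = 3; log2 fold change 0.53, SE 0.32, adjusted p = 0.738 by limma).

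Among 7 tested partners of MGA in the Polycomb complex PRC1.6, 1 lay above 0 and the median was -0.24 (-0.56 without control replicate 2 and -0.38 without AVP replicate 3). Yaf2, a subunit that binds the RING1 ligases, was at 9.34, 13.4 and 9.13 FPKM in the control libraries, against 0, 3.38 and 0.369 FPKM in the AVP libraries, without overlap (log2 fold change -2.63, SE 0.72, adjusted p = 0.313 by limma). The heterochromatin protein genes Cbx3 and Cbx1 overlapped between groups, at -0.24 (SE 0.31) and -1.61 (SE 0.78) in log2 units. Of 11 tested MYC coactivators, 10 lay above 0 with a median of 0.33 (0.05 without AVP replicate 3 and 0.53 without AVP replicate 1) and 0 were without overlap, Cdk9, the elongation kinase, being at 27.6 ± 8.51 and 32.1 ± 1.85 FPKM (SD, n = 3). Crebbp, a histone acetyltransferase, was at 0.46 (SE 0.52) in log2 units. Of 11 genes of MYC turnover, 5 lay above 0 (median 0.00), and the phosphatase genes Ppp2ca and Ppp2r5a, the most abundant, stood at 0.56 (SE 0.48) and -0.33 (SE 0.36) in log2 units.

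The ribosome biogenesis and growth genes that MYC is known to activate lay on both sides of 0. Of 30 tested genes, 15 lay above 0 and the median was -0.03, although it was 0.53 over the 9 with at least 10 FPKM in 3 libraries, 0.25 without AVP replicate 1 and 0.23 without control replicate 2. Eif5a, a translation factor, was the most abundant at 187 ± 50.5 FPKM over the controls and 107 ± 47.3 FPKM over the AVP libraries (SD, n = 3). Ldha, lactate dehydrogenase A and also a target of MLX, was at 35.7, 12.7 and 89.6 FPKM in the control libraries, against 131, 286 and 82.2 FPKM in the AVP libraries, so that control replicate 3 lay above AVP replicate 3 (log2 fold change 2.12, SE 0.69, adjusted p = 0.406 by limma). Polr1a, the large subunit of RNA polymerase I, was without overlap by a narrow margin, at 0.198, 0.113 and 1.154 FPKM in the control libraries, against 7.002, 1.498 and 1.156 FPKM in the AVP libraries. Like Myc, it passed the filter through its AVP libraries, as among the controls only replicate 3 reached 1 FPKM.

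Of 22 cell cycle targets, 7 passed the filter and all 7 lay above 0, with a median of 0.79. Over all genes 47.9% lay above 0, and nothing is read from the count of 7. The median was 0.17 over the 20 detected members without the filter, 0.45 without control replicate 2 and 0.44 with 5 added before the logarithm. Cdk4, a G1 kinase, was at 4.34, 0.305 and 2.38 FPKM in the control libraries, against 11.95, 57.3 and 17.1 FPKM in the AVP libraries, without overlap (log2 fold change 3.13, SE 0.77, adjusted p = 0.288 by limma). Pcna and Id2, the most abundant, overlapped, at log2 fold changes of 0.79 (SE 0.58) and 0.43 (SE 0.39). The 7 markers of dividing cells summed to 24.4 to 64.2 FPKM over the controls and 3.43 to 41.5 FPKM over the AVP libraries, mostly from the tubulin gene Tubb5. Without Tubb5 they summed to 1.70 to 10.2 and 1.17 to 6.90 FPKM, Top2a, Birc5 and Ccnb1 were at or near 0 throughout, and Cdk1 was at 0 in all 6 libraries.

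Among 11 tested genes that MYC is known to repress, 5 were higher and 1 lower without overlap, with 7 above 0 and a median of 0.30, and 0 passed over all genes. Over all genes 6.39% were higher and 7.63% lower without overlap, and as the list was chosen with results known and not tested as a set, nothing is read from its count. Gadd45a, a growth arrest and DNA damage gene, was at 96.8, 83.6 and 95.9 FPKM in the control libraries, against 190, 223 and 246 FPKM in the AVP libraries (log2 fold change 1.33, SE 0.22, adjusted p = 0.12 by limma). Cdkn1a, which encodes the cell cycle inhibitor p21, was at 0, 0.314 and 0.203 FPKM in the control libraries, against 1.47, 36.9 and 14.01 FPKM in the AVP libraries. It passed the filter through the AVP libraries alone, so a tested Cdkn1a had to be higher. Cebpa, Btg2 and Klf6, named after their values were seen, were the others that were higher without overlap, at log2 fold changes of 1.99 (SE 0.68), 0.72 (SE 0.26) and 0.92 (SE 0.31). Btg1, an antiproliferative gene and the most abundant of the list, was at 418 ± 52.7 and 483 ± 46.8 FPKM (SD, n = 3), with overlap.

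Txnip, an inhibitor of thioredoxin and of glucose uptake and the best known target of MondoA with MLX, was the gene that was lower. It was at 356, 260 and 284 FPKM in the control libraries, against 219, 136 and 136 FPKM in the AVP libraries. Its groups did not overlap, and the fitted change in log2 units was -0.81 (SE 0.30; adjusted p = 0.481 by limma). Of the 10 tested MLX targets, 6 lay above 0 (median 0.23) and 3 were lower without overlap: Txnip, Acly (-1.30, SE 0.66), which makes cytosolic acetyl-CoA, and Hk2 (-0.68, SE 0.52), a hexokinase named after its values were seen. Txnip is also counted in the list of genes repressed by MYC, the share lower without overlap over all genes was 7.63%, and nothing is read from the count of 3. The MondoA gene Mlxip was at 5.14, 3.18 and 4.41 FPKM in the control libraries, against 2.09, 7.07 and 1.42 FPKM in the AVP libraries, with overlap. The E-box CACGTG was found in start-site windows of 5 of 13 MLX targets (38.5%), 11 of 38 ribosome biogenesis and growth targets (28.9%) and 3 of 18 cell cycle targets (16.7%), tested or not, beside 8.1% of all 27025 genes with a window. In the other 6 lists the share was 7.1% to 12.5%, with 1 gene each. The ribosome biogenesis and growth list was written as genes that MYC activates through E-boxes. The MLX and cell cycle lists were written as targets of MLX and of MYC. A high share may thus come from the choice of genes, and nothing is read from these shares.

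**Figure D5:**
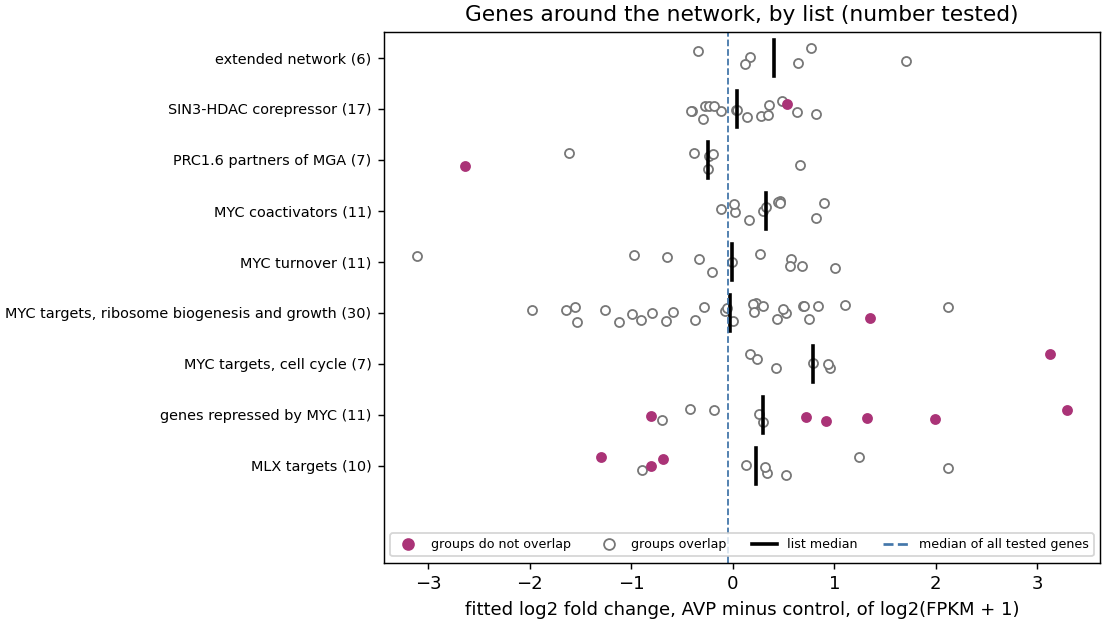
Fitted log2 fold change (x axis, AVP minus control, of log2(FPKM + 1)) of each tested gene in the 9 lists around the network, filled where the groups do not overlap, with the list median as a black bar and the median of all tested genes (-0.04) as a dashed line; vertical scatter within a row has no meaning. Filled points are 6 of 11 genes repressed by MYC and 3 of 10 MLX targets, with Txnip in both. The SIN3, PRC1.6, ribosome biogenesis and cell cycle rows hold 1 filled point each. Groups did not overlap in 11.1% of genes over all lists and 14% of all genes. The ribosome biogenesis row spreads to both sides of 0.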

How the data were processed

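RNA of 3 control and 3 AVP neutrophil samples, grouped by title, was sequenced as TruSeq libraries on a NovaSeq, per the labels' protocols. Per the submitters' processing notes, the mm10 build was used, with HISAT2 2.1 and featureCounts 1.6.4 among the tools, besides cutadapt 1.16.5, DESeq2 2.11.40.6 and bcl2fastq 2.19. Which step each did, the strand setting and the annotation: not given in the sources used here. All deposited values were taken as FPKM, a unit inferred from the values (not whole, library totals of 755140 to 829725). Depth was estimated from the step of low values in short pseudogenes, and an exact 0 may be a failed estimate.

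A gene was kept if 3 or more libraries reached 1 FPKM (8523 genes). Scaling factors came from log ratios averaged after trimming 30% of ratios and 5% of levels at each end. Values were tested as log2(FPKM + 1) with limma 3.58.1 in R 4.3.3, with an intensity trend and Benjamini-Hochberg adjustment at 0.05; fold changes on this scale understate those of low genes. The procedure was also run on simulated normal log2 values, without the filter and with shifts only in genes of higher mean level. That run does not bear on low genes such as Myc and Mxd4. Tables and exact tests used Python 3.11.15 and scipy 1.17.1. Of 235 list entries, 234 were matched by symbol. Members and lists were chosen with earlier results of these data known. Named genes were the members, the 5 genes most like Mxd1, and from each list the 2 of highest mean and up to 2 of smallest p without overlap. Coordinates and windows are from RefSeq GRCm38.p6, the assembly of mm10. Alternatives were other scalings, filters and pseudocounts, no intensity trend, a replicate block, removal of haemoglobin, immunoglobulin and mitochondrial genes, and each library left out.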

Additional observations from a re-analysis of the deposited data

How the results depend on the processing

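Of 348 values recomputed under the alternatives, 331 stayed within the spread between replicates or near the original count. Genes called were 11 with a filter of 10 FPKM, 3 with a pseudocount of 5, 1 without an intensity trend, and 0 to 4 with a library left out (4 without control replicate 3). Genes at an unadjusted p under 0.05 were 383 with the 10 FPKM filter, which tests fewer genes, and 572 to 770 with a library left out. With pseudocounts of 0.1 and 5 the log2 fold change was -4.53 and -0.90 for Mxd4 and 3.95 and 1.05 for Myc. That of Max ranged from -0.12 (without control replicate 1) to 0.88 with a library left out; the cause was not tested. List medians that moved were the extended network at 1.18 and ribosome biogenesis and growth at 0.53 with the 10 FPKM filter, and the cell cycle targets at 0.17 without a filter and 0.44 with a pseudocount of 5. With a library left out, the cell cycle median ranged from 0.45 to 1.006 and the ribosome biogenesis median from -0.28 to 0.25; medians that changed sign within the spread were those of the SIN3 corepressor (-0.15 to 0.17), MYC turnover (-0.26 to 0.38) and the MLX targets (-0.05 to 0.31). Myc against Mxd4 ranged from -0.0014 to 1.36 on the log2 scale, reversing without AVP replicate 3; with 5 libraries the sign-flip test cannot go below 0.0625. The replicate number as a block gave 0 genes called and 670 at an unadjusted p under 0.05. Deviations of same-numbered libraries from their group means had correlations of -0.04 to 0.02. With 3 libraries per group this check cannot exclude a pairing, and the labels do not say whether the numbers pair the samples. Fold changes of Myc and Mxd4 rest on under 5 fragments per kilobase in some libraries.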
